A study of Mus musculus with 12 samples.

Results

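Imiquimod-treated skin was compared with untreated skin in mice that had not been stressed, using 6 of the 12 RNA-seq libraries of the series. The members are all the libraries of those groups, namely 3 labelled as imiquimod (IMQ) and 3 labelled as without treatment (Ctrl). All came from dorsal skin of C57BL/6J mice at day 29. The series also holds 3 libraries of mice given chronic restraint stress with imiquimod (CRS+IMQ) and 3 of mice given the stress alone (CRS), which enter only where the effect of imiquimod is set beside that in stressed mice. The labels give no dose, vehicle, age or sex, and do not say whether a library is 1 animal or a pool. All p-values accordingly rest on how far these libraries differ from one another, and that variation may be technical only.

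Imiquimod is a small molecule that activates Toll-like receptor 7 (Tlr7), an endosomal sensor of single-stranded RNA. The receptor signals through Myd88 and Irf7 to type I interferon, which acts through Stat2 and Irf9 on the interferon-stimulated genes. Repeated application to mouse back skin is a widely used model of psoriasis-like inflammation, in which IL-23 and IL-17 drive keratinocytes to multiply, to make the stress keratins Krt6, Krt16 and Krt17, and to attract neutrophils.

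Levels are FPKM, fragments per kilobase of transcript scaled to the mapped fragments of a library. Differences are log2(FPKM + 1) in IMQ minus Ctrl skin and understate the changes of genes near or below 1 FPKM, while a fold is the ratio of the group means of FPKM. A gene was tested if it reached 1 FPKM in at least 3 of the 6 libraries, and called if its adjusted p in limma, over all tested genes, was under 0.05. The spacing of low FPKM values put the depth of the 6 IMQ and Ctrl libraries at 39300000 to 41400000 fragments. Skin markers were present throughout, with the keratinocyte genes Krt5, Krt14 and Krt10 at 1411 FPKM or more and the dermal collagen Col1a1 at 104 FPKM or more in each of the 6 libraries. Mitochondrial genes held 17.4, 12.5 and 15.7% of the FPKM total in the IMQ libraries and 8.69, 12.4 and 15% in the Ctrl libraries. The IMQ and Ctrl libraries lie in different deposited tables, so a table effect and imiquimod cannot be told apart in the direct comparison.

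The libraries of each group were not evenly spread. Among 309 genes that reached 20 FPKM and differed over 2-fold between IMQ replicates 1 and 2, replicate 3 lay between them in 92.6%. Its median position was 0.607 of the way from replicate 2 to replicate 1, with quartiles of 0.548 and 0.659. The 19 gene lists with enough such genes gave medians between 0.479 and 0.639. One fixed weighted sum of replicates 1 and 2 matched replicate 3 with a median deviation of 6.92%. In the untreated group, replicate 2 lay between replicates 1 and 3 in 86.2% of 218 such genes and matched their weighted sum with a median deviation of 11.5%. What these patterns say about the source of the libraries was not tested. Results are therefore given with and without IMQ replicate 3, and leaving out Ctrl replicate 2 is named where it ends a call.

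The groups are named as the submitters labelled them, and every direction below rests on those labels, which no engineered gene in the design can check. The summed macrophage and monocyte markers stood at 463, 690 and 561 FPKM in the libraries labelled IMQ, against 5295, 3893 and 3461 FPKM in those labelled Ctrl. In the stressed mice they stood at 3764, 3817 and 3796 FPKM in the libraries labelled CRS+IMQ, against 497, 485 and 512 FPKM in those labelled CRS. In this sum the libraries labelled IMQ thus lay near those labelled CRS, and those labelled CRS+IMQ near those labelled Ctrl. Not every member kept this order, since Retnla, an abundant member in Ctrl skin, was lower with imiquimod in stressed mice too. Other lists did not all keep this order. The MHC class II sum was 319, 310 and 313 FPKM in the CRS+IMQ libraries. That lay nearer to the IMQ libraries (202, 297 and 246 FPKM) than to the Ctrl libraries (1742, 1380 and 1019 FPKM). The keratinocyte activation sum was 15612, 15593 and 15360 FPKM in CRS+IMQ and 701, 692 and 721 FPKM in CRS. It was 2232, 1829 and 2072 FPKM in IMQ and 1053, 1009 and 709 FPKM in Ctrl. Whether the labels are right was not tested.

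**Figure D1:**
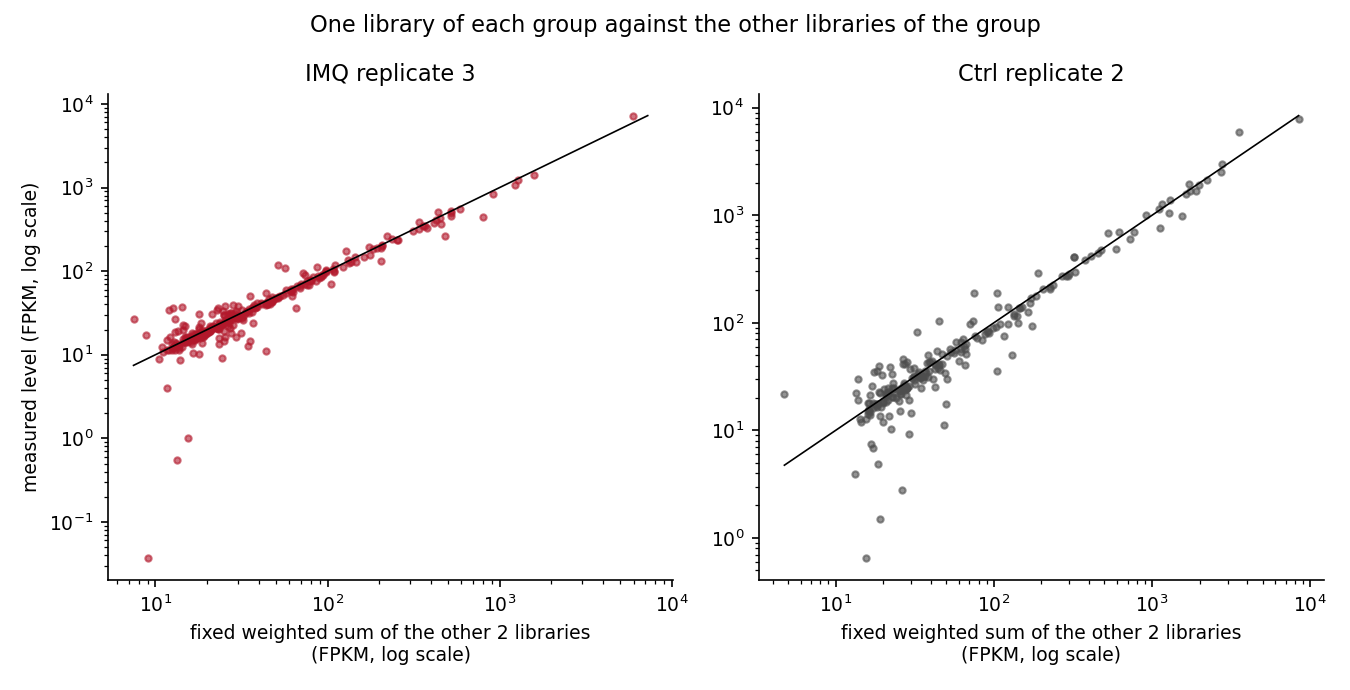
Measured FPKM of IMQ replicate 3 (left, red) and Ctrl replicate 2 (right, grey) against a fixed weighted sum of the other libraries of the same group, on log axes. Each point is a gene that reached 20 FPKM and differed over 2-fold between those other libraries, and the line marks equality. The median deviation from the sum was 6.92% for IMQ replicate 3 and 11.5% for Ctrl replicate 2.

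Interferon-response, antigen-presentation, macrophage and complement genes were lower in IMQ skin, while keratinocyte activation, hair follicle and pigment cell genes were higher. Of 13981 genes tested, 854 (6.11%) were called higher and 1881 (13.5%) lower, which is 19.6% in all. The log2(FPKM + 1) difference was at least 1 in size in 323 of the higher and 930 of the lower genes. The median difference over all tested genes was 0.02. Without IMQ replicate 3, 189 genes (1.39%) were called higher and 1097 (8.05%) lower of 13632 tested, and 1256 genes were called both with and without it. Genes that reached 1 FPKM in the 3 libraries of 1 group alone could not be tested without any one of them, so counts under an omission also rest on fewer genes. Leaving out Ctrl replicate 1 gave 1185 calls in all and leaving out Ctrl replicate 2 gave 1084. Under quantile normalization 44.1% of the calls were higher, against 31.2% as deposited. Of the calls, 134 genes could be tested only through their level in IMQ skin and 319 only through that in Ctrl skin, so these had to differ. Among the genes named below, Cstdc6, Fosb, Krt25, Krt27, Krt35, Krt71, Krt73, Krt84, Lce3f, Per2, Saa3, Serpinb3a, Shh, Sprr2a3, Stfa2 and Wfdc12 could be tested only through IMQ skin. Alox5, Ccl24, Il22ra1, Lyve1, Mmp9, Mrgprb2, Npas2, Timd4, Tlr7, Tlr9 and Tnf could be tested only through Ctrl skin. In the interferon, GTPase, MHC, monocyte chemokine, dendritic, T and NK, B cell and complement lists, no tested member was higher in limma at an unadjusted p under 0.05, and 1 macrophage marker was. These are bulk libraries, in which fewer cells of a type and less RNA per cell cannot be told apart.

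**Figure D2:**
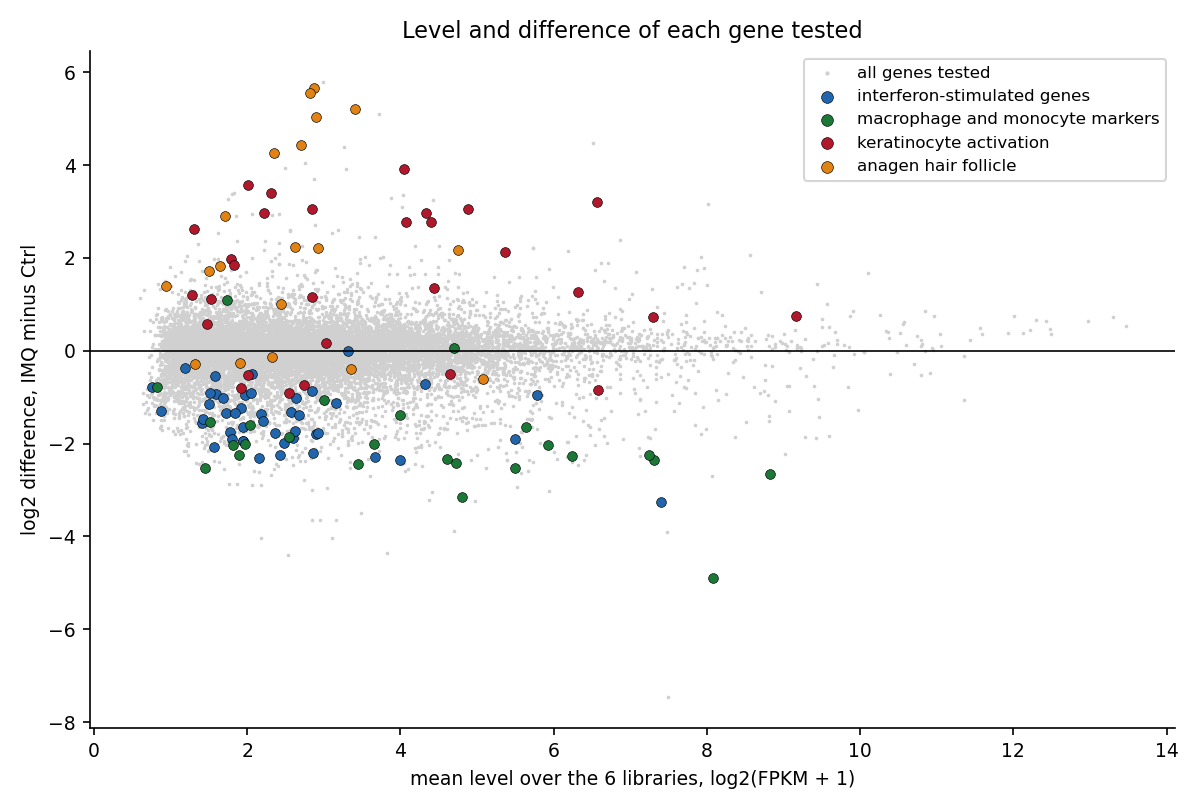
Difference between IMQ and Ctrl skin, in log2(FPKM + 1), against the mean level of each tested gene. Grey points are all tested genes and colored points are members of the interferon-stimulated, macrophage and monocyte, keratinocyte activation and anagen hair follicle lists. Most interferon-stimulated and macrophage members lie below 0, with list medians of -1.39 and -2.03, and most members of the other lists lie above it, with medians of 1.35 and 2.18.

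The receptor of imiquimod was itself lower in the treated skin, along with other parts of its signaling chain. Tlr7 (chrX:167304929-167330558, mm10) had 0.412, 0.416 and 0.589 FPKM in the IMQ libraries, against 3.56, 1.19 and 3.16 FPKM in the Ctrl libraries. The groups did not overlap, and the mean was 5.58-fold lower (log2 difference -1.24, SE 0.28, adjusted p = 0.0247), but leaving out any one IMQ library ended the call, and without a Ctrl library the gene was too low to be tested. Tlr9, the related sensor of unmethylated DNA, averaged 6.73-fold lower (log2 difference -0.99, adjusted p = 0.00506). Unc93b1, which carries both receptors to the endosome, had 13.3, 21.6 and 16.4 FPKM in IMQ skin and 67.2, 49.1 and 46.7 FPKM in Ctrl skin (log2 difference -1.62, adjusted p = 0.00367). Of the 22 tested genes of imiquimod sensing and signaling, 7 were called lower and 0 higher in limma, and 3 to 5 were lower under each omission of 1 library. Their median difference was -0.36.

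Irf7, the transcription factor that amplifies interferon production, showed the tightest separation of the chain. It had 2.96, 3.06 and 2.97 FPKM in IMQ skin, against 15.7, 12.2 and 12.7 FPKM in Ctrl skin. The mean was 4.52-fold lower (log2 difference -1.85, SE 0.13, adjusted p = 6.21e-04). Stat2, a transducer of the type I interferon signal, differed by -1.30 on the log2 scale and the transcription factor Irf1 by -0.91 (adjusted p = 8.54e-04 and 0.00263). Among interferon ligands, receptors and transcription factors, 10 of 14 tested genes were called lower and 0 higher, and 7 were lower without IMQ replicate 3. Type I interferon transcripts themselves could not be tested, since Ifna1, Ifna2, Ifna4 and Ifnb1 were listed at 0 in all 6 libraries.

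The genes that interferon induces were lower nearly throughout. Of 45 tested interferon-stimulated genes, 42 were called lower, 0 were called higher and 3 (Ifit2, Trim25 and Trim21) did not pass. Their median difference was -1.39, beside 0.02 over all tested genes. Without IMQ replicate 3, 41 were lower, and over the 6 omissions of 1 library the count ranged from 35 to 42. The summed level of the list was 210, 220 and 216 FPKM in the IMQ libraries, against 1011, 951 and 1168 FPKM in the Ctrl libraries, so the lowest untreated library lay far above the highest treated one.

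Isg15 (chr4:156199424-156200818), a ubiquitin-like modifier, had 4.15, 5.19 and 4.90 FPKM in IMQ skin, against 34.2, 25.9 and 22.4 FPKM in Ctrl skin. The groups did not overlap (4.75 ± 0.537 and 27.5 ± 6.06 FPKM, SD, n = 3 each), and the mean was 5.8-fold lower (log2 difference -2.29, SE 0.18, adjusted p = 6.98e-04 in limma). Ifit3 (chr19:34583531-34588731), an antiviral RNA-response protein, had 7.47, 5.05 and 5.89 FPKM in IMQ skin and 36.6, 32.8 and 35.4 FPKM in Ctrl skin (log2 difference -2.35, adjusted p = 5.67e-04). Ifi27l2a was the deepest fall of the list, with 48.8, 61.0 and 52.8 FPKM in IMQ skin, against 447, 470 and 676 FPKM in Ctrl skin. Zbp1, a sensor of Z-form nucleic acid, averaged 8.94-fold lower, and Oasl2, of the oligoadenylate synthetase family, averaged 7.22-fold lower. All of these kept their call when any one library was left out.

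Interferon acts on many of these genes through the interferon-stimulated response element (ISRE) in their promoters, and MHC class II genes carry a Y box. The promoters of 6 genes that were lower in IMQ skin are shown for that reason, from 250 bases before to 50 bases after the RefSeq start (GRCm38.p6), each on the strand of its gene. They lie at chr4:156200769-156201068 on the minus strand, chr19:34583279-34583578 on the plus strand, chr8:71537423-71537722 on the minus strand, chr11:58199306-58199605 on the plus strand, chr3:142620413-142620712 on the plus strand and chr17:34287774-34288073 on the minus strand. Capitals mark matches to the motif searched (GAAA, any 2 bases, GAAA, on either strand), with adjoining matches run together, and in H2-Aa the match to CTGATTGG.
Isg15: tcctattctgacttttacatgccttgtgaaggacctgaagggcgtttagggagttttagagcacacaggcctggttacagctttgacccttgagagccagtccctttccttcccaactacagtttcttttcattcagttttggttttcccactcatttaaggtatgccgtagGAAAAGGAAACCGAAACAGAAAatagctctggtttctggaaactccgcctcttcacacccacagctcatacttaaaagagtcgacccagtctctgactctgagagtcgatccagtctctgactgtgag
Ifit3: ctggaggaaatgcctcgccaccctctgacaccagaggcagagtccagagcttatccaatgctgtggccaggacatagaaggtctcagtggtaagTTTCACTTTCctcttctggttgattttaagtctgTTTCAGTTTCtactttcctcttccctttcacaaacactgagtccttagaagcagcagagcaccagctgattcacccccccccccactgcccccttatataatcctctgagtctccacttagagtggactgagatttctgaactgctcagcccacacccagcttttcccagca
Bst2: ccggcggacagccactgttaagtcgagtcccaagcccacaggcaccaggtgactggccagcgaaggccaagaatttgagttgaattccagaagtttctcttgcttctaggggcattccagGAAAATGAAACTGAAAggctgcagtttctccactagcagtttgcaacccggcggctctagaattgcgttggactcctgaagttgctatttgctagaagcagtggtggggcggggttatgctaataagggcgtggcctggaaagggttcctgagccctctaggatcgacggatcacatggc
Igtp: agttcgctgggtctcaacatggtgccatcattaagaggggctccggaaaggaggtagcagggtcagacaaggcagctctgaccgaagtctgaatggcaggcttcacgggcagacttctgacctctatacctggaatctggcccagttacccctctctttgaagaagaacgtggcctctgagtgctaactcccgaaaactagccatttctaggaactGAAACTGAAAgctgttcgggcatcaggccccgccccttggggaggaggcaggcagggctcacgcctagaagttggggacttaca
Gbp2: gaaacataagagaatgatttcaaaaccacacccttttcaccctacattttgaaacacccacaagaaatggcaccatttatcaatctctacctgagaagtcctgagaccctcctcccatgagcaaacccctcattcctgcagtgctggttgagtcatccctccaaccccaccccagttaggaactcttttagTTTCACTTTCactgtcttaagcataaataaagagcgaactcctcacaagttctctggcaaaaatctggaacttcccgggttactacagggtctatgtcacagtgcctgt
H2-Aa: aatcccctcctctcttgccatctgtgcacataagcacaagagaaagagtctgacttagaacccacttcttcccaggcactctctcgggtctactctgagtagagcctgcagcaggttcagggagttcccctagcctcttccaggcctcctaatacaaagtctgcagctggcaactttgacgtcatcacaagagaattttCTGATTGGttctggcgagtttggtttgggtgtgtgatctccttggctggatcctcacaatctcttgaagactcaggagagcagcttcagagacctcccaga
The first matched base lay at -78 in Isg15, -156 in Ifit3, -130 in Bst2, -34 in Igtp, -59 in Gbp2 and -51 in H2-Aa, counted from the annotated start. A match to the ISRE motif was found in 18 of the 33 tested interferon-stimulated genes that had a promoter in the RefSeq table (54.5%). Among those called lower it was in 17 of 30 (56.7%), and among the tested interferon-inducible GTPases in 9 of 10 (90%). The same motif was in 1079 of 27018 promoters of all genes (3.99%) and in 380 of 9984 promoters of tested genes (3.81%). Over the whole comparison it was in 12 of 587 promoters of genes called higher (2.04%) and in 117 of 1379 of genes called lower (8.48%). CTGATTGG was in 2 of the 6 promoters of the MHC class II presentation list (H2-Aa and H2-Eb1), which also holds the protease gene Ctss. It was in 1271 of 27018 promoters of all genes (4.7%). It was in 605 of 9984 promoters of tested genes (6.06%), with 5.08% among genes called lower and 5.96% among genes called higher. These matches describe letters in a window and do not show binding.

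Guanylate-binding proteins and immunity-related GTPases, which interferon induces against intracellular pathogens, were lower in all 16 tested cases. They were lower in 16 of 16 without IMQ replicate 3 as well, and in 11 or more under each omission of 1 library. Igtp had 6.22, 5.08 and 5.99 FPKM in IMQ skin, against 17.1, 15.4 and 15.4 FPKM in Ctrl skin. That is 2.77-fold lower, with no overlap (log2 difference -1.33, adjusted p = 9.79e-04). Gbp2 and Irgm2 differed by -1.22 and -1.40 on the log2 scale. Several members have close paralogs, among which the counting of fragments may have been divided.

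Both classes of antigen presentation were lower. Of 21 MHC class I and immunoproteasome genes, 18 were called lower and 0 higher, and 18 were lower without IMQ replicate 3. B2m, the light chain shared by class I molecules, had 405, 319 and 354 FPKM in IMQ skin, against 1420, 1288 and 1221 FPKM in Ctrl skin (log2 difference -1.87, adjusted p = 9.48e-04). H2-Q7 was 4.57-fold lower, with the caution that the H2-Q genes are near-identical copies. All 11 tested genes of class II presentation were lower, with and without IMQ replicate 3, at a median of -1.84. H2-Aa (chr17:34282744-34287823), the class II alpha chain whose promoter is shown above, had 23.3, 35.1 and 28.3 FPKM in IMQ skin and 191, 147 and 113 FPKM in Ctrl skin (log2 difference -2.33, SE 0.24, adjusted p = 0.00144). Ctss, the protease that trims the class II invariant chain, was 6.26-fold lower.

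**Figure D3:**
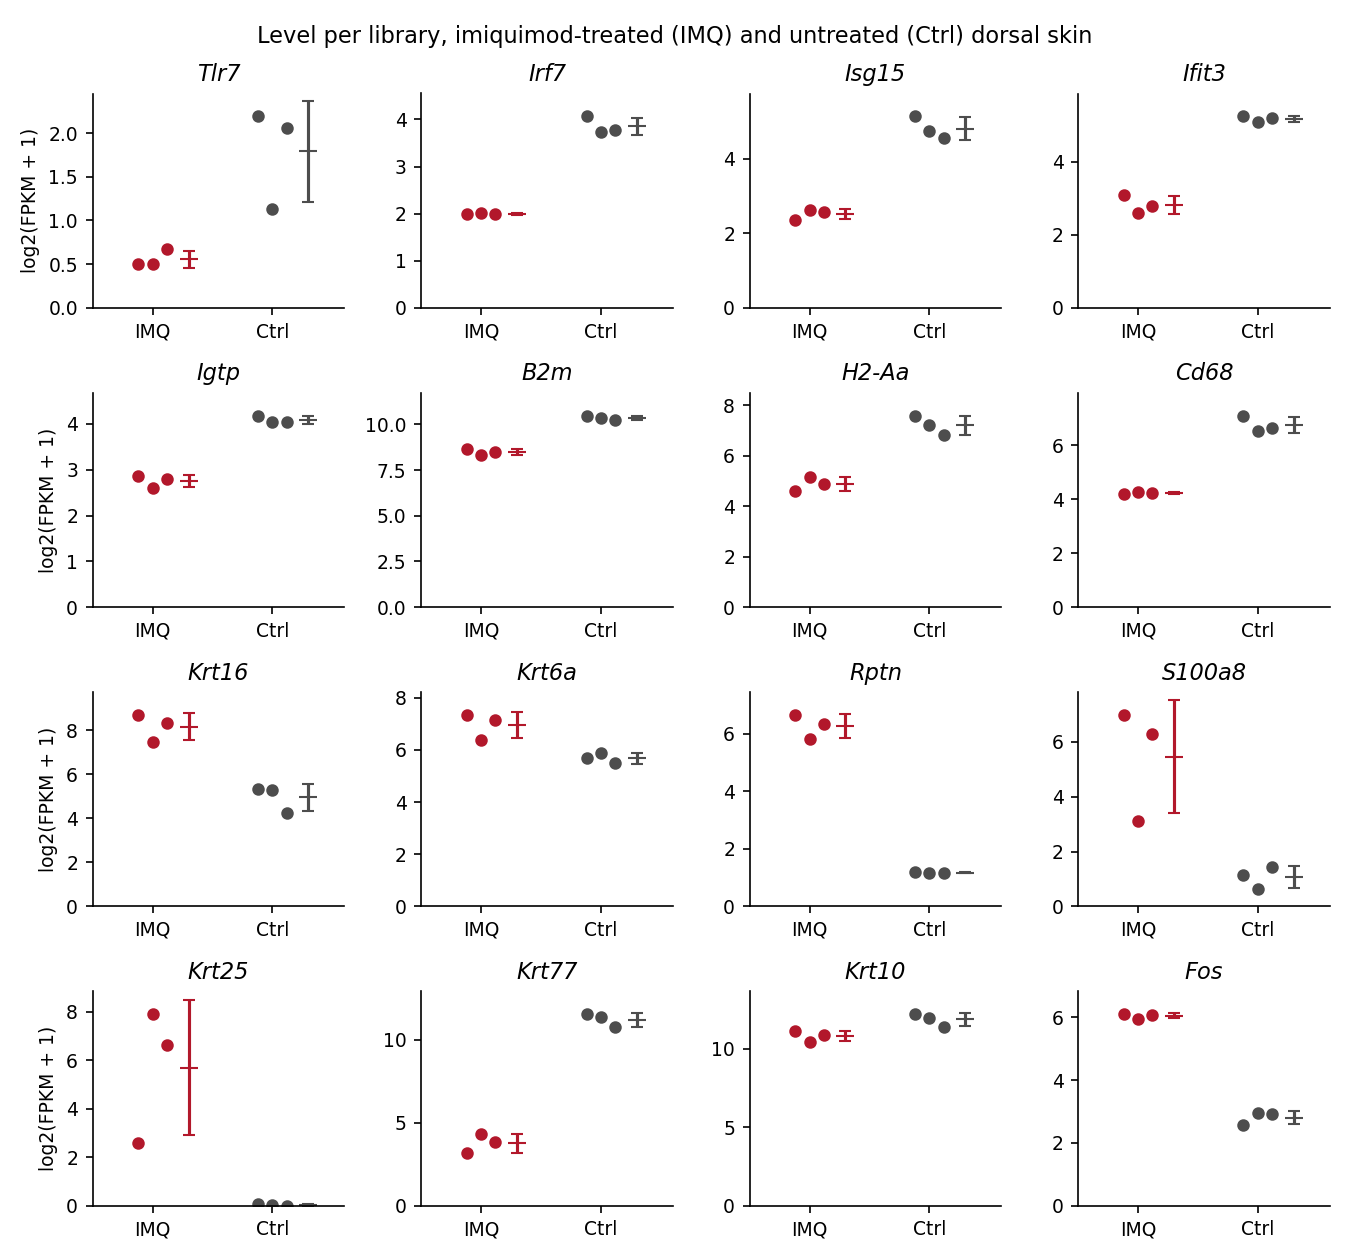
Level per library, in log2(FPKM + 1), of 16 genes in IMQ skin (red, left) and Ctrl skin (grey, right). Points are single libraries and bars give the mean ± SD (n = 3 each). Tlr7, Irf7, Isg15, Ifit3, Igtp, B2m, H2-Aa, Cd68, Krt77 and Krt10 lie lower in IMQ skin, and Krt16, Krt6a, Rptn, S100a8, Krt25 and Fos lie higher, with S100a8 and Krt25 widely spread among the IMQ libraries.

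The cytokines for which the model is known were scarce in these libraries. Il17a had 0.262, 0.124 and 0.213 FPKM in IMQ skin and was listed at 0 in all 3 Ctrl libraries. Il17f had 0.361, 0.12 and 0 FPKM in IMQ skin and 0, 0.0241 and 0.0243 FPKM in Ctrl skin. Il23a had 0.118, 0.0216 and 0 FPKM in IMQ skin and 0.153, 0.106 and 0.0424 FPKM in Ctrl skin, and Il22 and Il12b were listed at 0 in all 6. None of these reached the level needed for a test. Il1b, which macrophages and neutrophils release, and Il6 were also too low to be tested, with 1.27, 0.467 and 0.604 FPKM of Il1b in IMQ skin and 0.782, 1.10 and 0.663 FPKM in Ctrl skin. Tnf had 0.25, 0.34 and 0.877 FPKM in IMQ skin and 1.62, 1.16 and 1.05 FPKM in Ctrl skin. These did not overlap, but the test did not pass (log2 difference -0.63, adjusted p = 0.0605), although it passed without IMQ replicate 3 (adjusted p = 0.031), and without a Ctrl library the gene was too low to be tested.

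Several receptors of these cytokines were lower, as were Il33 and Il1a. Il22ra1, the keratinocyte receptor of IL-22, had 0.788, 0.635 and 0.986 FPKM in IMQ skin and 5.81, 3.90 and 3.03 FPKM in Ctrl skin (log2 difference -1.51, adjusted p = 0.00378). Il20ra, a receptor chain for IL-20 family cytokines, was 8.08-fold lower and Il6ra differed by -1.64 on the log2 scale. Il33, an alarmin stored in epithelial nuclei, had 3.25, 2.20 and 2.65 FPKM in IMQ skin, against 14.3, 12.2 and 13.1 FPKM in Ctrl skin (log2 difference -1.95, adjusted p = 6.63e-04). Il1a, a cytokine that keratinocytes hold preformed, was 4.2-fold lower. Of 17 tested IL-36 and IL-1 genes, 6 were called lower and 1 higher, and 4 were lower and 0 higher without IMQ replicate 3. The higher one was Il1f6, which encodes IL-36 alpha and was picked out after its value was seen (log2 difference 1.25). Of the 6 omissions of 1 library, only that of IMQ replicate 2 left any gene of the list called higher. Il1f9, which encodes IL-36 gamma, had 24, 15.6 and 20.5 FPKM in IMQ skin and 41.0, 35.3 and 22.2 FPKM in Ctrl skin and did not pass (adjusted p = 0.122), but did without Ctrl replicate 3 (adjusted p = 0.0372). In the IL-23 and IL-17 list 3 of 9 tested genes were lower and 0 higher, with 1 member higher at an unadjusted p under 0.05, and the range of the lower count over single omissions was 0 to 3.

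Chemokines of monocytes and lymphocytes were lower as a group. Of 20 tested, 15 were called lower and 0 higher, and 12 were lower without IMQ replicate 3, 8 without Ctrl replicate 1 and 9 without Ctrl replicate 2. Ccl6, made by myeloid cells, had 8.39, 11.1 and 8.69 FPKM in IMQ skin, against 109, 94.4 and 84.5 FPKM in Ctrl skin. That was a 10.2-fold lower mean with no overlap (log2 difference -3.23, adjusted p = 3.38e-04). Ccl24, an eosinophil attractant, was 17.9-fold lower, and Cxcl13, which attracts B cells, was 6.36-fold lower. Cxcl10, an interferon-induced attractant of T cells, had 1.58, 0.628 and 0.938 FPKM in IMQ skin and 3.23, 2.76 and 1.27 FPKM in Ctrl skin and did not pass (adjusted p = 0.118), but did without Ctrl replicate 3 (adjusted p = 0.0384). Ccl20, which attracts IL-17 producing cells, was not tested, at 0.739, 0.56 and 0.275 FPKM in IMQ skin and 2.05, 2.14 and 0.832 FPKM in Ctrl skin.

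Macrophage markers fell furthest among the immune cell lists. Of 25 tested, 23 were called lower and 0 higher, and 23 were lower without IMQ replicate 3, at a median of -2.03. The summed level was 463, 690 and 561 FPKM in the IMQ libraries, against 5295, 3893 and 3461 FPKM in the Ctrl libraries. Cd68 (chr11:69664213-69666153), a lysosomal protein of macrophages, had 17.4, 18.2 and 17.7 FPKM in IMQ skin and 136, 91.3 and 99.4 FPKM in Ctrl skin (log2 difference -2.53, SE 0.17, adjusted p = 6.21e-04). Retnla (chr16:48842551-48844461), a marker of alternatively activated macrophages, had 50.8, 45.2 and 50.1 FPKM in IMQ skin, against 2013, 1463 and 1097 FPKM in Ctrl skin. This was a 31.3-fold lower mean with no overlap. Folr2 and Timd4, which mark tissue-resident macrophages, were 9.73-fold and 41-fold lower. Lyz2, the lysozyme of myeloid cells, had 151, 221 and 176 FPKM in IMQ skin and 1386, 1036 and 1020 FPKM in Ctrl skin.

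Dendritic, lymphoid and mast cell markers went the same way in smaller numbers. Of 11 tested dendritic and Langerhans cell markers 10 were lower, and 7 without IMQ replicate 3 and 5 without Ctrl replicate 2. Mgl2, a lectin of dermal dendritic cells and macrophages, had 1.05, 1.42 and 0.935 FPKM in IMQ skin, against 39.3, 29.1 and 33.8 FPKM in Ctrl skin, a 30-fold lower mean. Cd207, the langerin of Langerhans cells, was 4.02-fold lower (adjusted p = 0.0117, and 0.0547 without Ctrl replicate 2). Among T and NK cell markers 8 of 16 were lower and 0 higher, with 2 to 8 lower over single omissions. Ighm, the heavy chain of IgM, had 22.1, 33.4 and 27.4 FPKM in IMQ skin and 112, 106 and 116 FPKM in Ctrl skin, and 4 of 5 B and plasma cell markers were lower. Without IMQ replicate 3 that count was 2, and without Ctrl replicate 1 or 2 it was 1. Of 6 mast cell markers 4 were lower and 0 higher, with 1 higher at an unadjusted p under 0.05, and the lower count ranged from 1 to 4 over single omissions and was 2 without IMQ replicate 3. Cpa3 and Mrgprb2, of mast cells, differed by -1.99 and -1.95 on the log2 scale.

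Complement genes, which liver, macrophages and fibroblasts make, were lower in 17 of 19 tested cases and higher in 0, with 15 lower without IMQ replicate 3. C3, the central component, had 24.7, 19.5 and 22.5 FPKM in IMQ skin, against 143, 93.7 and 133 FPKM in Ctrl skin (log2 difference -2.40, adjusted p = 7.75e-04). Cfp, the properdin of the alternative pathway, was 6.51-fold lower. The list shares C1qa, C1qb and C1qc with the macrophage list.

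**Figure D4:**
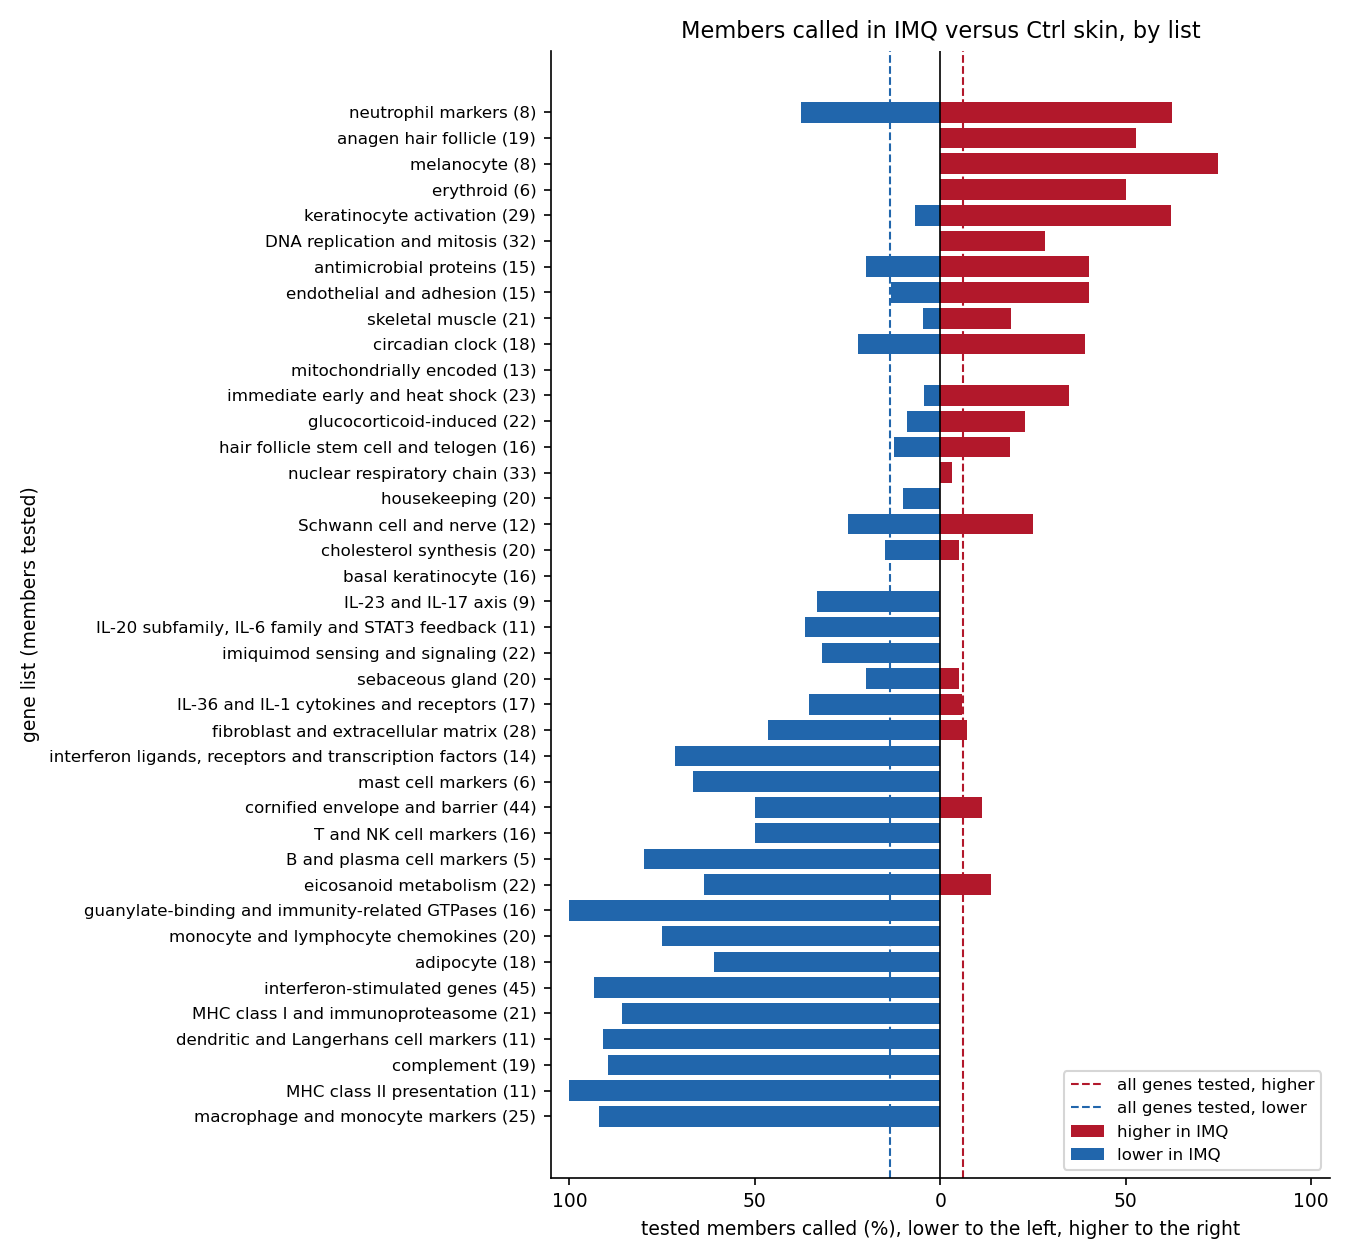
Percent of tested members called lower (left) and higher (right) in IMQ skin for the gene lists with at least 5 tested members. Dashed lines give the percent over all tested genes, 13.5% lower and 6.11% higher. Interferon, MHC, macrophage and complement lists reach far left, and the neutrophil marker, melanocyte, keratinocyte activation and anagen lists reach far right.

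Neutrophil markers split in opposite directions. Of 8 tested, 5 were higher and 3 lower, and the 5 were the S100a8 and S100a9 calprotectin subunits and Stfa1, Stfa2 and Stfa3, genes that keratinocytes can also express. Without IMQ replicate 3, 2 of 7 were higher, and without each Ctrl library 3 were. S100a8 (chr3:90668978-90670035) had 125, 7.64 and 76.0 FPKM in IMQ skin, against 1.21, 0.54 and 1.72 FPKM in Ctrl skin. The mean was 60.2-fold higher with no overlap (log2 difference 4.38, SE 0.94, adjusted p = 0.0212). The adjusted p was 0.071 without IMQ replicate 3 and between 0.0538 and 0.0827 without each Ctrl library, and the call of S100a9 ended under the same omissions. Stfa2 had 36.6, 18.3 and 27.1 FPKM in IMQ skin and 0.996, 0.692 and 0.365 FPKM in Ctrl skin, though the Stfa genes are near-identical copies and their separate levels are uncertain. Markers made almost solely by neutrophils, picked out after their values were seen, were low, and only Ngp in IMQ replicate 1 reached 1 FPKM. Ly6g had 0.109, 0 and 0 FPKM in IMQ skin and was listed at 0 in all 3 Ctrl libraries, and Ngp had 4.26, 0.0397 and 0.291 FPKM in IMQ skin and 0, 0.0398 and 0 FPKM in Ctrl skin. Mmp9, a gelatinase of neutrophils and other cells, was 12.7-fold lower, and the interleukin decoy receptor Il1r2 differed by -1.55 on the log2 scale.

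Genes of activated keratinocytes, the epidermal signature of the model, were higher. Of 29 tested, 18 were called higher and 2 lower, and 10 of 25 were higher without IMQ replicate 3. The summed level was 2232, 1829 and 2072 FPKM in the IMQ libraries and 1053, 1009 and 709 FPKM in the Ctrl libraries. Krt16 (chr11:100246091-100248902), a stress keratin, had 413, 178 and 320 FPKM in IMQ skin, against 39.2, 38.4 and 17.8 FPKM in Ctrl skin. The groups did not overlap (303 ± 118 and 31.8 ± 12.1 FPKM, SD, n = 3 each), and the mean was 9.55-fold higher (log2 difference 3.21, SE 0.41, adjusted p = 0.00296). Krt6a, its partner, had 161, 81.9 and 139 FPKM in IMQ skin and 50, 58.1 and 43.7 FPKM in Ctrl skin. Its call (adjusted p = 0.0199) ended without IMQ replicate 3, where the adjusted p was 0.076, and without each Ctrl library. Krt17 had 580, 950 and 733 FPKM in IMQ skin and 485, 492 and 364 FPKM in Ctrl skin and did not pass (log2 difference 0.74, adjusted p = 0.0717), but did without IMQ replicate 1 (adjusted p = 0.0485).

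Other members of the list stayed under 1 FPKM in every Ctrl library, so that they could be tested only through IMQ skin and had to differ. Lce3f, a late envelope protein of disturbed epidermis, had 15.7, 14.0 and 15.4 FPKM in IMQ skin, against 0.838, 0.504 and 0.282 FPKM in Ctrl skin (log2 difference 3.39, adjusted p = 2.84e-04). Serpinb3a, a serine protease inhibitor of the squamous cell carcinoma antigen family, had 18.4, 8.60 and 13.5 FPKM in IMQ skin and 0.107, 0.179 and 0.237 FPKM in Ctrl skin. Sprr2a3, a small proline-rich envelope protein, was 7.87-fold higher. The Sprr2a, Lce3 and Serpinb3 genes lie in clusters of close copies, so the division of fragments among them is uncertain.

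Of 15 tested genes for antimicrobial proteins, 6 were higher and 3 lower, with 1 of 12 higher without IMQ replicate 3 and 3 higher without each Ctrl library. Wfdc12 had 26.0, 16.4 and 21.3 FPKM in IMQ skin, against 0.58, 0.155 and 0.629 FPKM in Ctrl skin (log2 difference 3.93, adjusted p = 4.37e-04). Chil1, a chitinase-like protein, was 25.4-fold higher and Saa3, an acute phase protein, 22.8-fold higher. Lcn2, the iron-binding lipocalin, was too low for a test, at 3.31, 0.449 and 2.55 FPKM in IMQ skin and 0.396, 0.926 and 0.957 FPKM in Ctrl skin. The lysozyme Lyz1 had 3.27, 11.1 and 4.98 FPKM in IMQ skin and 106, 95.7 and 96.3 FPKM in Ctrl skin. Cstdc5 and Cstdc6, cystatin-like genes close to the Stfa genes, were among the 10 steepest rises, at 24.2-fold and 91.9-fold.

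The cornified envelope was changed in both directions. Of 44 tested barrier genes, 22 were lower and 5 higher, with 9 to 31 lower over single omissions. Without IMQ replicate 3, 12 were lower and 2 higher. Krt77 (chr15:101858731-101869705), a suprabasal epidermal keratin, had 8, 18.7 and 13.2 FPKM in IMQ skin, against 3000, 2649 and 1728 FPKM in Ctrl skin. It was the steepest fall of a named gene, at 185-fold with no overlap (log2 difference -7.46, SE 0.33, adjusted p = 2.84e-04). Flg2, a filaggrin-like envelope protein, had 2.56, 2.21 and 0.421 FPKM in IMQ skin and 56.4, 42.9 and 11.7 FPKM in Ctrl skin. Lce1m was 15.7-fold lower and the keratin Krt80 5.46-fold lower. Rptn (chr3:93393699-93399442), repetin, went the other way, with 99.6, 55.7 and 80.6 FPKM in IMQ skin and 1.29, 1.26 and 1.24 FPKM in Ctrl skin, a 62.4-fold higher mean.

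The abundant differentiation genes moved less. Flg, the filaggrin precursor, had 49.7, 35.9 and 43.0 FPKM in IMQ skin and 20.9, 21.2 and 11.5 FPKM in Ctrl skin (adjusted p = 0.0174, and 0.0614 without IMQ replicate 3). Krt10, the main suprabasal keratin, had 2250, 1411 and 1884 FPKM in IMQ skin and 4761, 4099 and 2765 FPKM in Ctrl skin. Its call (adjusted p = 0.0432) ended without any one IMQ library and without Ctrl replicate 1 or 2. Lor, which encodes loricrin, had 748, 640 and 703 FPKM in IMQ skin and 1602, 1387 and 774 FPKM in Ctrl skin and did not pass (adjusted p = 0.105), but did without Ctrl replicate 3 (adjusted p = 0.00771). Of 16 basal keratinocyte genes 0 were called in either direction in limma, with 2 higher and 5 lower at an unadjusted p under 0.05. Krt14 differed by 0.05 on the log2 scale (adjusted p = 0.915).

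Genes of DNA replication and mitosis differed between the IMQ libraries more than between the groups. Their summed level was 278, 920 and 517 FPKM in the IMQ libraries and 233, 226 and 164 FPKM in the Ctrl libraries. Of 32 tested, 9 were called higher, 29 without IMQ replicate 1, and 0 without IMQ replicate 3. Leaving out any one Ctrl library also left 0. Mcm5, a subunit of the replicative helicase, had 10.5, 31.0 and 18.4 FPKM in IMQ skin and 6.16, 5.32 and 3.81 FPKM in Ctrl skin (adjusted p = 0.0225). Mki67, the marker of cycling cells, had 7.55, 30.4 and 16.5 FPKM in IMQ skin and 6.73, 6.51 and 4.58 FPKM in Ctrl skin and did not pass (adjusted p = 0.0886), but did without IMQ replicate 1 (adjusted p = 0.0122).

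Hair follicle growth genes showed the same order of libraries. The summed level of the anagen list was 103, 1428 and 628 FPKM in the IMQ libraries, against 97.0, 94.7 and 67.3 FPKM in the Ctrl libraries. In this sum IMQ replicate 1 lay close to the untreated libraries and replicate 2 stood apart. Single genes such as Krt25 and Shh, given below, were still higher in replicate 1 than in every Ctrl library. Of 19 tested, 10 were called higher and 0 lower. Without IMQ replicate 3 only 10 could be tested and 1 was higher. Krt25 (chr11:99315516-99322951), a keratin of the inner root sheath, had 4.97, 237 and 97.4 FPKM in IMQ skin and 0.0503, 0.0245 and 0 FPKM in Ctrl skin. Its call (log2 difference 5.66, SE 1.24, adjusted p = 0.0226) ended without any one Ctrl library, and without an IMQ library it was too low to be tested. Krt73, Krt28, Krt71 and Krt27 of the same sheath and Krt35 of the hair cortex were also among the 10 steepest rises, with log2 differences of 4.25 to 5.55, and each lost its call without Ctrl replicate 1 or 2. Shh, the growth signal of the follicle, had 3.05, 16.9 and 8.88 FPKM in IMQ skin and 0.175, 0.273 and 0.144 FPKM in Ctrl skin. Its call (adjusted p = 0.00886) was kept without any one Ctrl library, and without an IMQ library it could not be tested.

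Melanocyte genes, which are active in pigmented growing hair, were higher in 6 of 8 tested cases and lower in 0, with 3 of 7 higher without IMQ replicate 3 and 3 without each Ctrl library. Pmel, of the melanosome matrix, had 22.6, 82.4 and 44.1 FPKM in IMQ skin, against 5.56, 6.56 and 4.99 FPKM in Ctrl skin. It averaged 8.72-fold higher (log2 difference 2.74, adjusted p = 0.00635), and its call was kept under every omission, as was that of Dct, an enzyme of melanin synthesis. Replicate 2 was again the highest library. Hair follicle stem cell and telogen genes gave 3 higher and 2 lower of 16 tested, with 1 higher without IMQ replicate 3 or Ctrl replicate 2, and the higher ones included the transcription factors Lhx2, whose call was kept under every omission, and Tbx1, whose call was not.

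Many adipocyte genes and some fibroblast and matrix genes were lower. Of 18 tested adipocyte genes 11 were lower and 0 higher, with 1 higher at an unadjusted p under 0.05, and 9 were lower without IMQ replicate 3. Adipoq, which encodes adiponectin, had 27.4, 36.2 and 33.0 FPKM in IMQ skin, against 110, 179 and 265 FPKM in Ctrl skin (log2 difference -2.40, adjusted p = 0.00333). Leptin, from Lep, differed by -2.01. Of 28 fibroblast and matrix genes 13 were lower and 2 higher, and 8 were lower and 0 higher without IMQ replicate 3. Dcn, the collagen-binding proteoglycan decorin, had 32.2, 40.5 and 34.6 FPKM in IMQ skin and 159, 109 and 169 FPKM in Ctrl skin (log2 difference -1.97, adjusted p = 0.00142). Fn1, fibronectin, differed by -1.78.

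Muscle, vessel and blood genes were less settled. The skeletal muscle sum was 40493, 28164 and 35883 FPKM in the IMQ libraries and 16735, 25009 and 37342 FPKM in the Ctrl libraries, which overlap, and 4 of 21 genes were higher and 1 lower. The higher count was 2 without IMQ replicate 3 or Ctrl replicate 1 or 2, and 8 without Ctrl replicate 3. Mb (chr15:77015487-77050670), myoglobin, had 1004, 556 and 825 FPKM in IMQ skin and 133, 194 and 243 FPKM in Ctrl skin (log2 difference 2.06, adjusted p = 0.00515). Pvalb, the calcium buffer of fast fibers, went the other way (log2 difference -1.42), a call that ended without IMQ replicate 3 or Ctrl replicate 2. Of 15 endothelial genes 6 were higher and 2 lower, with 0 higher without IMQ replicate 3 or Ctrl replicate 1 or 2. Lyve1, of lymphatic vessels and some macrophages, had 0.809, 0.763 and 0.539 FPKM in IMQ skin and 6.37, 4.79 and 11.4 FPKM in Ctrl skin. Erythroid genes were higher in 3 of 6 tested cases, and in 0 without IMQ replicate 1 or 3 or Ctrl replicate 1 or 2, with sums of 2045, 734 and 1533 FPKM in IMQ skin and 542, 277 and 581 FPKM in Ctrl skin. Whether the samples held unequal shares of these tissues, and what part that had in other results, was not tested.

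Immediate early and heat shock genes, which cells switch on soon after a stimulus, were higher in 8 of 23 tested cases and lower in 1, with 5 higher and 0 lower without IMQ replicate 3. Fos (chr12:85473890-85477273), a subunit of the AP-1 transcription factor, had 67.7, 61.3 and 67.1 FPKM in IMQ skin, against 4.95, 6.70 and 6.51 FPKM in Ctrl skin. The groups were far apart (65.4 ± 3.5 and 6.05 ± 0.959 FPKM, SD, n = 3 each), a 10.8-fold higher mean (log2 difference 3.24, SE 0.14, adjusted p = 2.84e-04). Egr1 and Fosb differed by 1.80 and 1.42 on the log2 scale. Dusp1, a phosphatase of stress kinases that glucocorticoids also induce, had 51.2, 42.8 and 48.8 FPKM in IMQ skin and 13.9, 15.4 and 13.7 FPKM in Ctrl skin. Of 22 glucocorticoid-induced genes 5 were higher and 2 lower, with 1 higher without IMQ replicate 3 or Ctrl replicate 1 or 2. Fkbp5, the most used marker of that response, was 0.72 higher on the log2 scale (adjusted p = 0.0251), a call that ended without IMQ replicate 3 and without each Ctrl library.

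Clock genes were called in both directions, 7 higher and 4 lower of 18 tested, with 3 higher and 2 lower without IMQ replicate 3. Per2 (chr1:91415982-91459324), a repressor of the clock, had 6.48, 3.28 and 5.33 FPKM in IMQ skin, against 0.41, 0.413 and 0.694 FPKM in Ctrl skin (log2 difference 1.97, adjusted p = 0.00188). Arntl, an activator that runs in opposite phase, had 1.17, 1.80 and 1.39 FPKM in IMQ skin and 5.02, 4.98 and 4.45 FPKM in Ctrl skin (log2 difference -1.25, adjusted p = 0.00158). Its relative Npas2 differed by -1.37. The labels give no hour of collection, so time of day and imiquimod cannot be told apart in these genes.

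Eicosanoid genes were lower in 14 of 22 tested cases and higher in 3, with 11 lower without IMQ replicate 3 and 8 without Ctrl replicate 2. Alox5, which starts leukotriene synthesis in myeloid cells, had 0.572, 0.642 and 0.613 FPKM in IMQ skin and 4.30, 4.78 and 3.40 FPKM in Ctrl skin. Pla2g2d, a phospholipase of dendritic cells and macrophages, was 12.4-fold lower, while Pla2g4e, a cytosolic phospholipase, differed by 1.71 on the log2 scale. Of 20 cholesterol synthesis genes 1 was higher and 3 lower, near the share over all tested genes (6.11% higher and 13.5% lower). Without IMQ replicate 3 or Ctrl replicate 2, 0 of them were called. Few respiratory chain genes were called. Of 33 nuclear ones 1 (Ndufb5) was higher, a call that ended without any one IMQ library and without Ctrl replicate 1 or 2. None of the 13 mitochondrially encoded genes was called, and none had an unadjusted p under 0.05 in limma. Of 20 housekeeping genes, 2 were lower, B2m and Gusb, and their median difference was 0.01.

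Imiquimod in stressed mice was set beside the comparison above by the difference of the effects, CRS+IMQ minus CRS less IMQ minus Ctrl, in limma over all 12 libraries. CRS+IMQ shares its table with IMQ and CRS with Ctrl, so a table effect that adds equally on the log scale cancels. Of 14864 genes tested, 4172 (28.1%) had a higher effect of imiquimod with stress and 3153 (21.2%) a lower one. Libraries of the stressed groups varied far less, with a median coefficient of variation of 2.99% in CRS+IMQ and 4.52% in CRS, against 11.2% in IMQ and 13.6% in Ctrl.

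The effect of imiquimod on interferon-response genes differed with stress. The effect was higher with stress in 43 of 45 tested interferon-stimulated genes and lower in 0, beside 28.1% and 21.2% of all tested genes. The list median was 0.68 with stress, against -1.39 without. Isg15 had 12.2, 9.76 and 10.2 FPKM in CRS+IMQ skin, against 4.38, 4.75 and 5.56 FPKM in CRS skin, a log2 difference of 0.99 and a difference of effects of 3.28 (SE 0.21, adjusted p = 7.00e-07). The CRS libraries thus lay at the level of the IMQ libraries, and the CRS+IMQ libraries lay between those and Ctrl. Irf7 had 4.21, 4.4 and 4.07 FPKM in CRS+IMQ skin and 3.89, 3.79 and 4.47 FPKM in CRS skin, which overlap.

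Macrophage and keratinocyte genes also differed. Cd68 had 124, 124 and 120 FPKM in CRS+IMQ skin, against 24.8, 22.5 and 24.4 FPKM in CRS skin, an effect of 2.31 where that without stress was -2.53. The effect was higher with stress in all 25 tested macrophage markers. Krt16 had 3985, 3922 and 3857 FPKM in CRS+IMQ skin and 6.47, 7.34 and 7.97 FPKM in CRS skin, an effect of 8.90 against 3.21 without stress. In the keratinocyte activation list 28 of 29 effects were higher with stress and 0 lower, beside 28.1% and 21.2% of all tested genes. Krt77 was lower with imiquimod in both settings, at 0.78, 0.213 and 0.257 FPKM in CRS+IMQ skin, against 99.5, 101 and 105 FPKM in CRS skin, and so was Retnla.

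Many hair, pigment and muscle genes had lower effects with stress. Krt25 had 2.63, 2.14 and 1.88 FPKM in CRS+IMQ skin, against 44.6, 43.5 and 45.8 FPKM in CRS skin, an effect of -3.83 where that without stress was 5.66. The effect was lower with stress in 14 of 19 tested anagen genes and higher in 2, Krt84 (0.43) and Foxn1 (1.33). Foxn1 was picked out after its value was seen. The effect was also lower in 6 of 8 tested melanocyte genes and 20 of 21 skeletal muscle genes, beside 21.2% of all tested genes. Mb had 132, 210 and 209 FPKM in CRS+IMQ skin and 651, 636 and 704 FPKM in CRS skin. Per2 had 3.45, 3.57 and 3.79 FPKM in CRS+IMQ skin and 12.3, 11.5 and 10.9 FPKM in CRS skin, an effect of -1.45 against 1.97 without stress. Fos was higher with imiquimod in both settings, by 0.88 with stress and by 3.24 without. S100a8 had an effect of 6.10 with stress, and its difference of effects did not pass (adjusted p = 0.21).

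**Figure D5:**
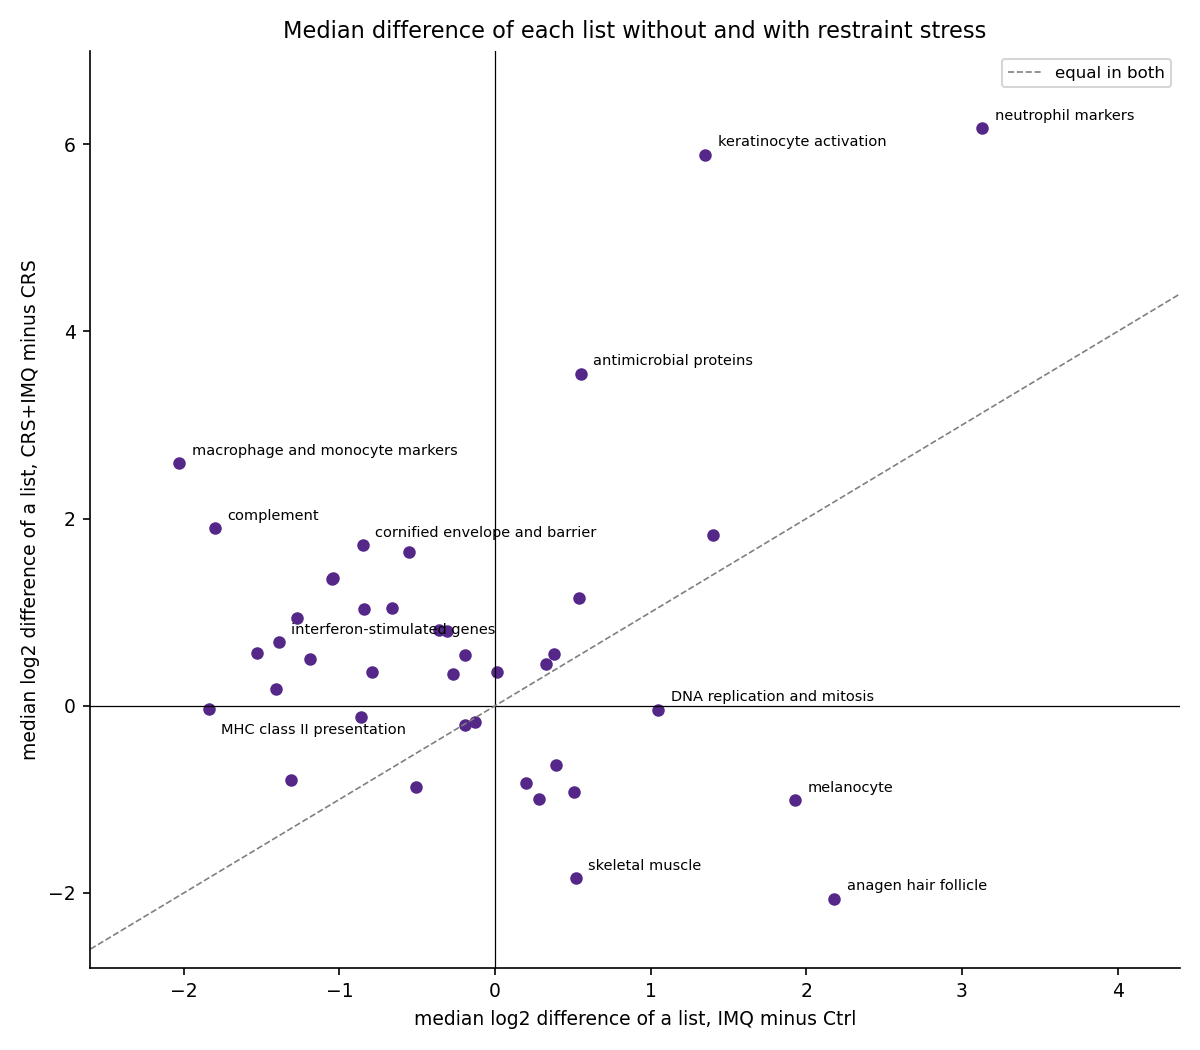
Median effect of imiquimod per gene list, in log2(FPKM + 1), for IMQ minus Ctrl on the horizontal axis and CRS+IMQ minus CRS on the vertical axis. The diagonal marks equal effects. The macrophage list lies at 2.59 with stress and -2.03 without it, and the anagen list at -2.06 with stress and 2.18 without it.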

How the data were processed

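Dorsal skin RNA was prepared with TRIzol and read on an Illumina NovaSeq, per the labels' protocols. The submitters' processing notes name StringTie, edgeR, limma and the mm10 build without roles or versions, and the aligner is not given in the sources used here. From their pipeline the authors deposited FPKM values of 55401 genes in 2 tables, each holding 2 of the groups. The authors' own fold changes and p-values compare other groups and were not used here.

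Values at or under 0.0001, which stand for 0, were set to 0. IMQ and Ctrl libraries alone were fitted as log2(FPKM + 1) with limma 3.58.1 (R 4.3.3, statmod 1.5.0), with a mean-variance trend and robust variances, for genes that reached 1 FPKM in 3 or more of the 6 libraries. Tests were two-sided, with Benjamini-Hochberg adjustment over all tested genes and a threshold of 0.05. An exact test of 3 against 3 libraries cannot go below p = 0.1, and calls depend on limma's shared variance estimate. The difference of effects used all 12 libraries. The code was tested on simulated data.

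Members and the 41 gene lists were chosen with earlier results of these data known, and 881 of 888 list symbols were matched in the files. The text draws on 187 tested genes set by a rule, not all of which it names. They include the 10 largest rises and 10 largest falls called with no overlap between groups and a mean of at least 1 FPKM. The rule added the 4 lowest p-values of each list and a set of psoriasis and barrier genes. Other genes are said to have been picked out later. Positions are from GENCODE M21 (GRCm38, that is mm10), and promoters are from RefSeq GRCm38.p6. Depth was estimated from the spacing of low FPKM values, and read counts were not used here. Alternatives covered pseudocounts, filters, normalization, a replicate block, all 12 libraries in 1 fit, a test against a 2-fold change and leaving out each library.

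Same-numbered IMQ and Ctrl libraries did not deviate together (correlations of -0.13, 0.01 and 0.02), so they were not treated as pairs.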

Additional observations from a re-analysis of the deposited data

Results flagged for a closer look

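The effect of imiquimod (log2 difference with stress minus that without) differed with stress in 35 of the genes that the rule names among the largest changes or always reports. Over all 14864 genes tested, 28.1% had a higher effect with stress and 21.2% a lower one. The largest changes were picked on IMQ minus Ctrl, which enters this difference with its sign reversed. For those genes a difference of opposite sign was thus partly built in by the choice. All values below, as fitted at a pseudocount of 1, passed limma's test of the difference over all genes.

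The effect was higher with stress in epidermal genes, by 5.68 for Krt16, 2.78 for Krt6a, 4.32 for Krt10, 3.14 for Krt14, 1.26 for Krt77, 1.86 for Rptn, 2.69 for Lor, 2.48 for Flg, 2.74 for Flg2, 1.43 for Lce1m, 4.37 for Cstdc5 and 1.97 for Cstdc6. The value for Krt77, which lay under 1 FPKM in all CRS+IMQ libraries, turned to -0.22 at a pseudocount of 0.1. In Krt10, Lor and Flg2 it went with log2 differences of 3.26, 1.91 and -0.91 in stressed mice and -1.06, -0.78 and -3.65 in unstressed mice.

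Among immune genes the effect was higher with stress by 6.96 for Fcna, 6.57 for Ifitm6, 3.78 for Lyz1, 3.65 for Ear2, 3.14 for Mgl2, 2.24 for Cd207 and 1.13 for Retnla. In interferon, cytokine and Toll-like receptor genes it was higher by 3.28 for Isg15, 1.91 for Irf7, 2.23 for Tlr7, 1.69 for Cxcl10, 4.52 for Il1f9 and 1.67 for Tnf. It was also higher by 2.87 for the calprotectin subunit S100a9 and by 5.07 for Kctd12. The call of Kctd12 in IMQ minus Ctrl ended without IMQ replicate 3 and without each Ctrl library. Fcna, a ficolin of macrophages, had log2 differences of 2.60 with stress and -4.35 without.

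The effect was lower with stress in hair keratins, with differences of -9.50 for Krt25, -9.55 for Krt73, -9.89 for Krt28, -8.81 for Krt71, -8.94 for Krt35 and -7.40 for Krt27. It was also lower for Mki67 (-1.43) and Fkbp5 (-0.95).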

How the results depend on the processing

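As deposited and fitted, 2735 genes were called, 854 higher and 1881 lower in IMQ skin. Leaving out 1 library gave 1084 to 2660 calls, 189 to 1063 higher and 835 to 1631 lower. For the difference of effects, the same omissions over all 12 libraries gave 6447 to 7857 calls, 3695 to 4473 higher and 2734 to 3761 lower, against 7325, 4172 and 3153. A mean of at least 5 FPKM left 1476 calls (428 higher, 1048 lower), and 4157, 2336 and 1821 for the difference of effects. No filter gave 478 higher, quantile normalization 1458 higher, and all 12 libraries in 1 fit 5312 calls (2344 higher, 2968 lower). A test against a 2-fold change gave 163 calls (36 higher, 127 lower). The share of calls that were higher was 31.2% as deposited, 24% with equal library totals, 35.9% with median-ratio scaling and 44.1% with quantile normalization. A pseudocount of 0.1 gave 2691 calls and of 10 gave 2536. At 0.1 the difference of effects of Krt77 was -0.22, against 1.26 as fitted. Krt77 lay under 1 FPKM in all CRS+IMQ libraries, where log2(FPKM + 1) understates a fall. A block for the replicate number gave 2049 calls (585 higher, 1464 lower) and 7062 for the difference of effects, and the numbers do not pair the libraries. Of 165 called genes named by the rule, 118 lost the call under no omission, of which 90 were tested and called under all 6. In all 34 of the 165 were too low to be tested under some omission. Depth limits low cytokine transcripts, whose levels correspond to few fragments.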
